A study of Mus musculus with 12 samples.

Results

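The genes described here mark the cells of brain blood vessels. They are 26 genes of the endothelium, 6 of pericytes and 3 of vascular smooth muscle, 35 in all, named by symbol from a list, and for each the transcript cluster (probes summarised as 1 transcribed stretch) with that symbol was used, the brightest by the mean of all 12 arrays. Of the 35 genes, 34 had such a cluster, and each of these had 1 cluster alone, out of 35556 clusters on the array and 21789 with 1 gene symbol. Ly6c1 lies in clusters that the annotation gives to Ly6c1 and Ly6c2 jointly, so it has no value of its own. The arrays came from 6 virgin females and 6 females that were lactating (postpartum days 6 to 8), all aged about 70 days and all of a line bred for high maternal aggression from outbred hsd:ICR stock, with 1 array of septum RNA per mouse. The methods give the punch as the whole septum and the labels as its lateral part. Lactating mice had lived with a breeder male and virgin mice with other females for 2 weeks, all were then housed alone, and both groups were fed breeder chow. Virgin mice were in estrus or diestrus, and which mouse was in which stage is not given in the sources used here. Because only 1 selected line was studied, other strains were not compared, and mating, pregnancy, birth, suckling and pup contact came together in the lactating group and cannot be told apart.

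Endothelial cells line the vessels and, in the brain, are sealed to each other by tight junctions and carry nutrients across by dedicated transporters. This wall is the blood-brain barrier. Pericytes lie on capillaries inside the basement membrane, and smooth muscle cells ring the arterioles and set their diameter. In a punch of whole tissue a vascular transcript is diluted by neurons and glia, and fewer vascular cells and less RNA per cell cannot be told apart.

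Each value is a linear intensity, and the groups were compared with limma on the log2 of intensity plus 16, always lactating minus virgin. Numbers after ± are SDs over the 6 mice of a group (n = 6) unless another n is given. Array medians of intensity were 320 to 339, and any pair of arrays correlated on the log2 scale at 0.987 to 0.994. The mean intensity of the 34 genes ran from 159 to 3627, and 26 of them lay above the median cluster. No filter on dim clusters was applied, so all 34 were tested. Markers of the septum were present, with mean intensities of 663 to 5718 for the 11 genes of that list. The arrays of 2 mice stood apart in some of the genes below. Lactating mouse 4 was high in smooth muscle and fibroblast genes, and virgin mouse 6 was high in Anpep and in microglial genes.

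In the septum of lactating mice 4 of the 34 vascular genes were higher and 2 were lower by limma (unadjusted p under 0.05). The higher genes were Eng, Slc2a1, Mfsd2a and Sox17, and the lower genes were Slc16a1 and Pltp. Among all clusters 3.26% were higher and 4.69% lower at this p, so 4 and 2 of 34 stand beside a background of 7.95% in either direction. With array medians subtracted the 34 genes gave 5 higher and 1 lower, and all clusters 2027 higher and 992 lower in place of 1160 and 1668. Over all clusters the split was 1301 to 1191 after quantile normalization, 1340 to 1129 after cyclic loess and 1569 to 1274 on linear intensities. With array weights there were 6 higher and 2 lower. Without virgin mouse 4 there were 7 higher, the added ones being Flt1, Kdr and Esam. No vascular gene passed an adjusted p under 0.05 over all clusters (background 0.0%), the smallest being 0.619. The median log2 difference of the 34 genes was −0.01, as it was over all clusters, and 16 of 34 were above 0. The 6 genes that passed were all on the endothelial list, though Slc2a1 and Slc16a1 are also made by glia. Of 6 pericyte genes 0 passed, and of 3 smooth muscle genes 0. With a background of 7.95%, counts of 0 in lists of 6 and 3 genes do not set them apart from all clusters. A test of whether these classes differ was not run.

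**Figure D1:**
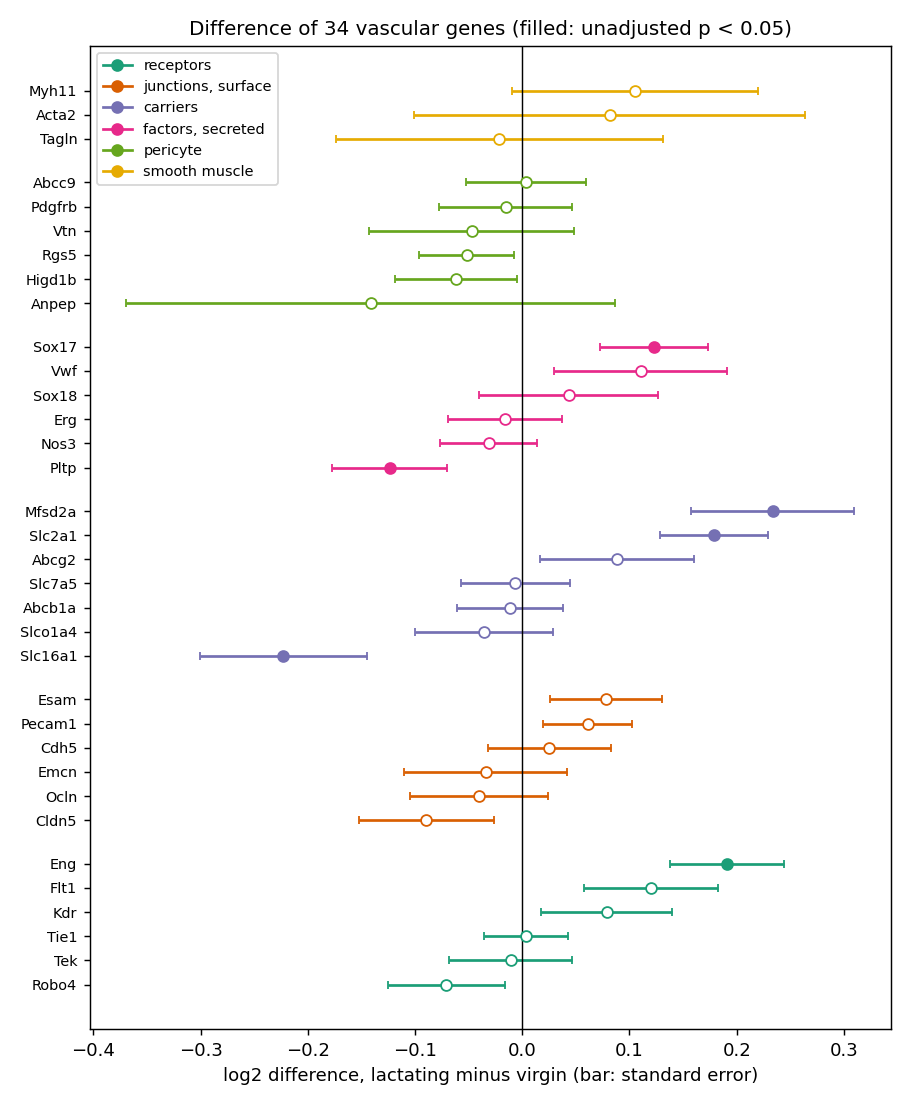
Log2 difference, lactating minus virgin (horizontal axis, bar: standard error from limma), of 34 vascular genes grouped by role (color), with filled points for an unadjusted p under 0.05. The filled points are Eng, Slc2a1, Mfsd2a and Sox17 above 0 and Slc16a1 and Pltp below 0, and the bars of Anpep, Acta2, Tagln and Myh11 are the widest.

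Eng encodes endoglin, a coreceptor of endothelial cells for ligands of the transforming growth factor beta family. It was the 1 vascular gene whose groups did not overlap. Its intensity in virgin mice had a lowest value of 567, a median of 630 and a highest of 685, and in lactating mice these were 687, 709 and 759. Each lactating mouse was thus above every virgin mouse, although the lowest lactating value lay close to the highest virgin value. The mean rose from 629 ± 50.8 (SD, n = 6) to 719 ± 31.5, which is 14.3% higher. The log2 difference was 0.19 (SE 0.0536), at an unadjusted p of 0.00352 and an adjusted p of 0.619 from limma. By permuting the mice (exact test, two-sided) p was 0.00216, the smallest value that 6 mice against 6 allow. Any gene whose groups do not overlap has this p, so it adds nothing to the lack of overlap. Over all clusters the groups did not overlap in the higher direction for 0.208%, and in either direction for 0.394%. After quantile normalization or cyclic loess the groups of Eng overlapped, with log2 differences of 0.17 and 0.18 and an unadjusted p of 0.00524 and 0.00581 from limma.

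Partners of endoglin were on the array as well. Acvrl1, a receptor for the bone morphogenetic proteins BMP9 and BMP10 that works with endoglin, averaged 442 ± 24.6 in virgin mice and 446 ± 27.8 in lactating mice, a log2 difference of 0.01. Tgfb1, a ligand of this family, was lower, at 279 ± 10.6 against 309 ± 28.3, with −0.14 on the log2 scale (p = 0.013, exact permutation test). Virgin mouse 6 was at 359 for Tgfb1 and the other virgin mice at 285 to 326. Without virgin mouse 6 its log2 difference was −0.09 (limma, unadjusted p 0.0495). The promoter of Eng is shown because Eng separated the groups. It is from RefSeq (GRCm38.p6, chr2:32646345-32646644, plus strand) and covers 250 bases before the start site and 50 from it on. The capitals mark the core GGAA of sites for ETS factors, to which the endothelial factor Erg belongs, or its reverse complement TTCC.
Eng: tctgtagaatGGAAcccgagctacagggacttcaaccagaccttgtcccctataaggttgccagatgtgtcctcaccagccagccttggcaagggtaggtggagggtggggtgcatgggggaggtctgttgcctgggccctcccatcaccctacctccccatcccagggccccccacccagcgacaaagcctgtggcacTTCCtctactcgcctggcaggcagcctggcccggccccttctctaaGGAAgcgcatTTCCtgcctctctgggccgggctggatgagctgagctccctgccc
The core was found 4 times here, with first bases 240, 51 and 5 before the start site and 5 after it. Of all 32851 promoters of this length 96% hold it on either strand, and of the 22 vascular genes with a promoter in the table, 20 had it.

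The other receptors are those through which growth and guidance signals reach the endothelium. Flt1 and Kdr, the receptors 1 and 2 for vascular endothelial growth factor, had log2 differences of 0.12 and 0.08. Flt1 ranged from 780 to 981 in virgin mice with a median of 859, and from 833 to 1053 in lactating mice with a median of 940. Lactating mouse 4 was above all virgin mice and 2 virgin mice were below all lactating mice, and the unadjusted p was 0.0766 from limma. With array medians subtracted Flt1 was past the threshold at an unadjusted p of 0.0369 from limma, with array weights at 0.0205, without lactating mouse 1 at 0.0254 and without virgin mouse 4 at 0.0189. It was past the threshold in 5 of 24 alternatives, and in the others its unadjusted p reached 0.285 and its log2 difference went down to 0.07. Kdr overlapped more, between 269 and 351 in virgin mice and between 302 and 337 in lactating mice (unadjusted p 0.218 from limma). Tek and Tie1 encode the receptor of the angiopoietins and its relative. Tie1 averaged 335 ± 15.3 in virgin mice and 335 ± 12.5 in lactating mice, and Tek 390 ± 26.7 and 387 ± 31.6. Neither gene separated the groups. Robo4, an endothelial receptor that stabilizes vessels, ran 332 to 424 in virgin and 342 to 365 in lactating mice, with a log2 difference of −0.07. Among 27 genes for ligands and signals of vessel growth and barrier formation, 0 were higher and 2 lower by limma (unadjusted p under 0.05). This stands beside 3.26% and 4.69% of all clusters, and the median log2 difference of the 27 genes was 0.01. The lower genes were Tgfb1 and Apcdd1, a target of Wnt signaling in barrier endothelium with 805 ± 68.2 against 891 ± 51.3. Vegfa itself had a log2 difference of 0.01, and Angpt1, the activating ligand of Tek, one of −0.07.

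**Figure D2:**
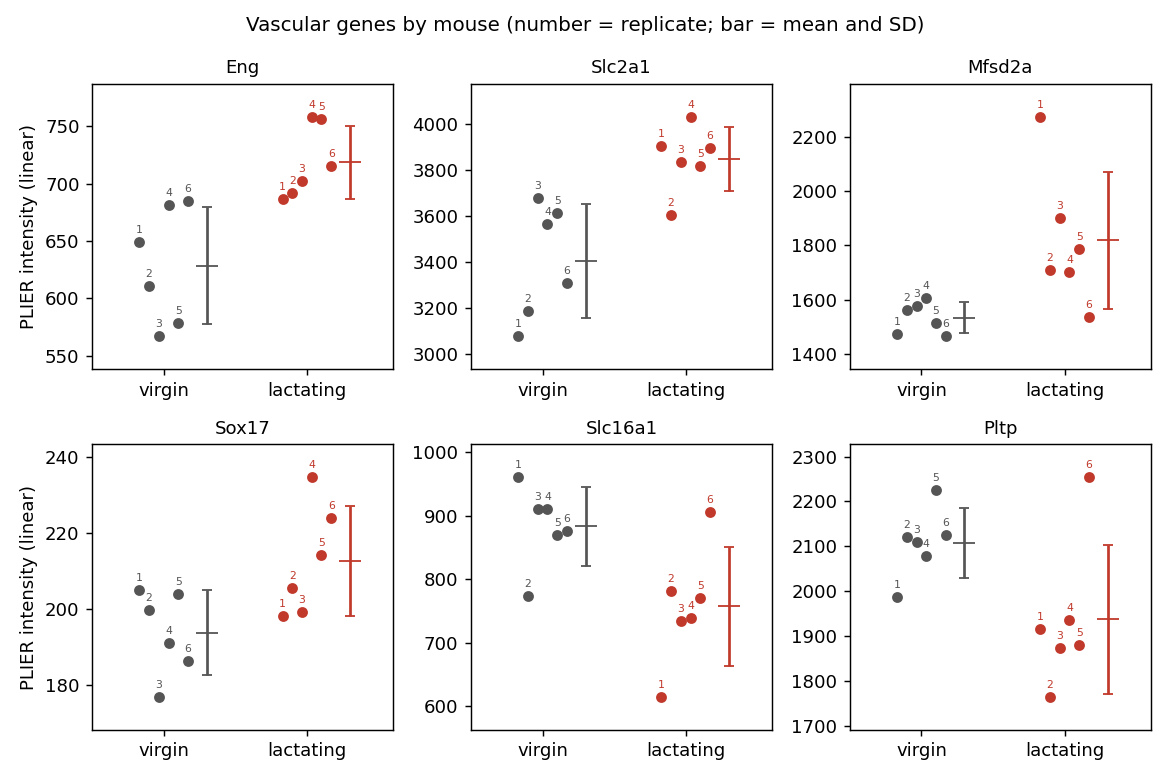
PLIER intensity (vertical axis, linear scale not starting at 0) of Eng, Slc2a1, Mfsd2a, Sox17, Slc16a1 and Pltp with each of the 12 mice as a point numbered by replicate (grey: virgin, red: lactating) beside the group mean and SD. Eng alone does not overlap between the groups. Lactating mouse 6 lies apart from the other lactating mice in Pltp and is the highest of them in Slc16a1.

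The carriers of the barrier went both ways. Slc2a1 encodes GLUT1, which takes glucose across the barrier and is also made by astrocytes. In virgin mice its lowest intensity was 3077, its median 3435 and its highest 3680, and in lactating mice these were 3606, 3865 and 4034. All lactating mice but mouse 2 were above every virgin mouse. The mean rose from 3404 ± 249 to 3849 ± 141, which is 13.1%, and the log2 difference was 0.18 (SE 0.0502). The unadjusted p was 0.00355 and the adjusted p 0.619 from limma, and the exact permutation test gave p = 0.00649. The study had singled out Slc2a1 on these arrays, so its test is not independent evidence. None of 9 other glucose transporter genes passed an unadjusted p under 0.05 from limma, beside 7.95% of all clusters. The nearest were Slc2a9 and Slc2a12, with log2 differences of −0.14 and 0.10. Slc2a3, the main glucose transporter of neurons, averaged 1974 ± 96.0 in virgin mice and 2070 ± 62.2 in lactating mice, a log2 difference of 0.07.

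Mfsd2a encodes the carrier that brings lysolipids with docosahexaenoic acid into the brain and holds down vesicle transport in the endothelium. It ranged from 1466 to 1606 in virgin mice with a median of 1539, and from 1537 to 2274 in lactating mice with a median of 1747. Of the lactating mice, mouse 6 alone fell within the virgin range, and mouse 1 was the highest. The mean was 1533 ± 57.5 in virgin mice and 1818 ± 253 in lactating mice, and the spread was thus wider in the latter. The log2 difference of 0.23 (SE 0.0759) was the largest in size among the 34 genes, at an unadjusted p of 0.00894 from limma and an exact permutation p of 0.00866.

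Slc16a1, which encodes the lactate and ketone body carrier MCT1 of endothelium, astrocytes and oligodendrocytes, was lower. Its lowest, median and highest intensity were 775, 893 and 961 in virgin mice and 615, 755 and 906 in lactating mice. In 4 lactating mice it was below every virgin mouse, and lactating mouse 6 was close to the virgin median. The mean fell by 14.2%, from 883 ± 62.5 to 758 ± 93.7, with a log2 difference of −0.22, a standard error of 0.0781 and an unadjusted p of 0.0137 from limma (exact permutation test, p = 0.0238). The chaperone of MCT1, Bsg, averaged 8077 ± 117 in virgin mice and 8083 ± 123 in lactating mice. Lactating mouse 1 had both the lowest Slc16a1 and the highest Mfsd2a intensity of its group.

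The other carriers overlapped between the groups. Slc7a5, the light chain of the large amino acid transporter LAT1, averaged 1968 ± 140 in virgin mice and 1957 ± 86.6 in lactating mice. Its heavy chain Slc3a2 had a log2 difference of 0.01. Slco1a4, which carries organic anions, ran from 555 to 720 and from 541 to 646 in virgin and lactating mice. The efflux pumps Abcb1a (P-glycoprotein) and Abcg2 had log2 differences of −0.01 and 0.09. Abcb1a values were 495 to 554 in virgin and 464 to 542 in lactating mice.

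Promoters of the 3 carriers that passed are shown because they went in different directions. They are from RefSeq (GRCm38.p6), at chr4:119108495-119108794 on the plus strand for Slc2a1, chr4:122961139-122961438 on the minus strand for Mfsd2a and chr3:104638414-104638713 on the plus strand for Slc16a1. The capitals mark ACGTG, the core of the hypoxia response element, or its reverse complement CACGT.
Slc2a1: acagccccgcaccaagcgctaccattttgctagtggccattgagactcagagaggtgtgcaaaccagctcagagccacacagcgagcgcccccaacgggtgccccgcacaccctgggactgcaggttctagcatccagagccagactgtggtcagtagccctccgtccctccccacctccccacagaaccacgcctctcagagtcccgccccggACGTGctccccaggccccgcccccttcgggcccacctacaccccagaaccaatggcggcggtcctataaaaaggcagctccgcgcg
Mfsd2a: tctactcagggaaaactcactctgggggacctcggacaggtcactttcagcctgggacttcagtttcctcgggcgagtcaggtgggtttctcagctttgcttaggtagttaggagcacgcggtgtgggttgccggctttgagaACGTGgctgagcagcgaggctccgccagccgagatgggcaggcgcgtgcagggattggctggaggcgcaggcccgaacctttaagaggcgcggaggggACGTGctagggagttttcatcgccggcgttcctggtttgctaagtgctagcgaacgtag
Slc16a1: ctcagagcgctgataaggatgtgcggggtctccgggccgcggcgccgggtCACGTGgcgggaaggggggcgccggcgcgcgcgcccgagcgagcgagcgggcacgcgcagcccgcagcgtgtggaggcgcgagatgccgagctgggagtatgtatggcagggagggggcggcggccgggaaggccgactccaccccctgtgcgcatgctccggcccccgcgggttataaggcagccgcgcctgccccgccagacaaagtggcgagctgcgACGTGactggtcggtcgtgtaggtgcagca
The core was found once in Slc2a1, 36 bases before the start site, and 2 times in Mfsd2a, 107 and 9 bases before it. In Slc16a1 it began 199 bases before the start site, where it overlaps its reverse complement in the E-box CACGTG, and again 20 bases after it. These 3 were the only vascular genes with the core, out of 22 with a promoter in the table, while 19.6% of all promoters of this length held it on either strand. Of these genes 2 were higher and 1 was lower. The promoters were also searched for the E-box, the GC box, the TATA box and the CCAAT box. Of the 22 genes, 1, 11, 6 and 10 had these, beside 7.15%, 35.7%, 13.6% and 37.4% of all promoters. Whether any motif goes with the differences was not tested. Of 14 measured genes known to be induced by hypoxia, which share Vegfa with the ligand list, 1 was higher and 0 lower by limma (unadjusted p under 0.05). Among all clusters 3.26% were higher and 4.69% lower at this p. The median log2 difference of the list was 0.03, and 12 of the 14 were above 0. Of the clusters at least as bright as the dimmest vascular gene, 51.0% were above 0. A part of hypoxia in these differences was not tested. The higher gene was Ddit4, an inhibitor of mTOR signaling, at 449 ± 22.2 in lactating and 412 ± 25.1 in virgin mice.

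Of 6 genes for the contacts and the surface of endothelial cells, 0 were higher and 0 lower, beside 3.26% and 4.69% of all clusters. A count of 0 in a list of 6 does not set it apart from all clusters. Cldn5, the main claudin of the barrier, had a lowest value of 1221, a median of 1330 and a highest of 1518 in virgin mice. In lactating mice these were 1194, 1259 and 1342. Virgin mice 1, 4 and 6 were above every lactating mouse, yet the log2 difference of −0.09 had a standard error of 0.063 (unadjusted p 0.179 from limma). Ocln, the tight junction protein occludin, averaged 369 ± 41.2 in virgin mice and 357 ± 16.4 in lactating mice. Cdh5, the cadherin of endothelial adherens junctions, averaged 440 ± 39.7 and 447 ± 21.9. Pecam1 and Esam, adhesion molecules at endothelial contacts, had log2 differences of 0.06 and 0.08, and 3 lactating mice were above all virgin mice for Pecam1. With array weights Pecam1 had an unadjusted p of 0.0446 from limma, and without virgin mouse 4 Esam had one of 0.0268 and Kdr one of 0.0354. Emcn, a sialomucin of capillaries and veins, reached 796 in lactating mouse 5, while the other lactating mice were between 573 and 641 and virgin mice between 576 and 738.

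Ly6c1, a surface protein of brain endothelium, could be followed only together with Ly6c2, a gene of monocytes, in 2 clusters. In the brighter one, virgin mice ranged from 1931 to 2242 and lactating mice from 2123 to 2470. The means were 2061 ± 119 and 2284 ± 124, and 3 lactating mice were above all virgin mice. The log2 difference was 0.15 at an unadjusted p of 0.00949 from limma (exact permutation test, p = 0.0173), and 0.14 in the other cluster (exact permutation test, p = 0.0216). The clusters are not counted among the 34 genes.

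Of the endothelial transcription factors, Sox17, which acts in arterial differentiation, was higher in lactating mice. It ran from 177 to 205 in virgin mice with a median of 195, and from 198 to 235 in lactating mice with a median of 210. Lactating mice 2, 4, 5 and 6 were above all virgin mice. The means were 194 ± 11.1 and 213 ± 14.6, and the log2 difference of 0.12 had an unadjusted p of 0.0295 from limma (exact permutation test, p = 0.0346). This call was lost without lactating mouse 4 (unadjusted p 0.0722 from limma), lactating mouse 6 (0.064), virgin mouse 3 (0.0699) or virgin mouse 6 (0.0588), and without lactating mouse 4 and virgin mouse 6 together (0.128). Its relative Sox18 averaged 358 ± 50.1 in virgin mice and 367 ± 18.7 in lactating mice, virgin mouse 3 being lowest at 268. Erg had a log2 difference of −0.02, and its 6 lactating values of 204 to 239 overlapped with 213 to 253 in virgin mice.

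Pltp, the phospholipid transfer protein, which moves phospholipids between lipoproteins, was lower in lactating mice. Its intensity was 1987 to 2226 in virgin mice, with a median of 2115. In lactating mice the lowest was 1764, the median 1898 and the highest 2254. Mice 1 to 5 of the lactating group lay below the whole virgin range, and mouse 6 lay above it. The log2 difference was −0.12 at an unadjusted p of 0.0373 from limma (exact permutation test, p = 0.0498), and without lactating mouse 6 the unadjusted p from limma was 0.00123 and the log2 difference −0.17. The call was lost without lactating mouse 1, 2, 3, 4 or 5 or virgin mouse 2, 3, 5 or 6, with an unadjusted p between 0.0549 and 0.089 from limma, and with array medians subtracted, where it was 0.117. It was also lost without lactating mouse 4 and virgin mouse 6 together (unadjusted p 0.0823 from limma). Summed over 9 oligodendrocyte markers, intensity was 25813 in lactating mouse 6, 25132 in lactating mouse 5, 17497 to 19330 in the other 4 lactating mice and 18901 to 22403 in virgin mice. Pltp intensity was 2254 in lactating mouse 6 and 1881 in lactating mouse 5. The part of oligodendrocytes in the value of Pltp was not tested. Nos3, the endothelial nitric oxide synthase, averaged 366 ± 15.8 in virgin mice and 358 ± 21.6 in lactating mice. Vwf, the clotting glycoprotein of larger vessels, ranged 247 to 314 in virgin and 263 to 371 in lactating mice, with lactating mouse 4 highest. Its log2 difference was 0.11, and 0.05 without that mouse (limma, unadjusted p 0.453).

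Of 28 further endothelial genes that were measured, listed apart from the 35, 1 was higher and 3 were lower by limma (unadjusted p under 0.05), beside 3.26% and 4.69% of all clusters, with a median log2 difference of −0.03. Nostrin, which traffics the nitric oxide synthase, went from 221 ± 13.8 in virgin mice to 258 ± 34.4 in lactating mice. Slc38a5, a glutamine carrier, averaged 452 ± 34.6 against 511 ± 39.6, with −0.17 on the log2 scale (p = 0.0108, exact permutation test). The transferrin receptor gene Tfrc, which brings iron across the barrier, and the forkhead factor gene Foxq1 had log2 differences of −0.14 and −0.11.

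Of the 6 pericyte genes none passed the threshold in either direction. Pdgfrb, the receptor through which platelet-derived growth factor holds pericytes on vessels, had a lowest value of 724, a median of 806 and a highest of 828 in virgin mice. In lactating mice these were 660, 800 and 874. The lactating values spread around the virgin ones on both sides, and the log2 difference was −0.02 (SE 0.0621). Its ligand gene Pdgfb also had −0.02. Rgs5, a regulator of G protein signaling, ran 1245 to 1458 in virgin and 1222 to 1365 in lactating mice. Abcc9, a subunit of the potassium channel of pericytes, averaged 308 ± 28.0 and 308 ± 11.6. Higd1b, a mitochondrial gene enriched in pericytes, had a log2 difference of −0.06.

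Vtn and Anpep varied more from mouse to mouse. Vtn, the matrix protein vitronectin, ranged from 1651 to 2482 in lactating mice and from 1931 to 2274 in virgin mice. Lactating mice 1, 2 and 3 were below all virgin mice and lactating mouse 4 was above them. Anpep, an aminopeptidase of pericytes that myeloid cells and fibroblasts also carry, was 422 in virgin mouse 6 and between 146 and 162 in the other virgin mice. In lactating mouse 4 it was 251, and between 139 and 174 in the other lactating mice. Virgin mouse 6 also had the highest value of its group for 7 of 9 microglial markers and 8 of 10 fibroblast markers, with a microglial sum of 8406 where the other virgin mice had 5747 to 6054. Without lactating mouse 4 and virgin mouse 6, an alternative chosen after seeing the data, the mean of Anpep was 155 ± 7.18 for virgin and 152 ± 13.8 for lactating mice (SD, n = 5 each). Among 20 further pericyte and smooth muscle genes 0 were higher and 0 lower, beside 3.26% and 4.69% of all clusters. The median log2 difference of these genes was 0.00. The pericyte channel gene Kcnj8 and the proteoglycan gene Cspg4 were among them, each at 0.00 as well.

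The smooth muscle genes were set apart by 1 mouse. Acta2, the smooth muscle actin, ranged from 1458 to 1946 in virgin mice with a median of 1695, and from 1417 to 3257 in lactating mice with a median of 1500. Myh11, the smooth muscle myosin heavy chain, ranged 380 to 414 in virgin and 367 to 658 in lactating mice, with medians of 395 and 390. Tagln, the actin-binding protein transgelin, ranged 278 to 451 in virgin and 269 to 502 in lactating mice, with medians of 308 and 290. In all 3 genes the highest lactating value was that of mouse 4, at 2.01, 1.68 and 1.68 times the mean of the other 5 lactating mice for Acta2, Myh11 and Tagln. The next was lactating mouse 6 in each of them, and for Acta2 (2216) and Myh11 (435) it too was above every virgin mouse. The medians of lactating mice were below those of virgin mice for all 3 genes, while the log2 differences were 0.08, 0.10 and −0.02 with standard errors of 0.183, 0.115 and 0.152. Without lactating mouse 4 the log2 differences became −0.09 for Acta2, −0.02 for Myh11 and −0.14 for Tagln, at an unadjusted p of 0.445, 0.731 and 0.249 from limma.

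**Figure D3:**
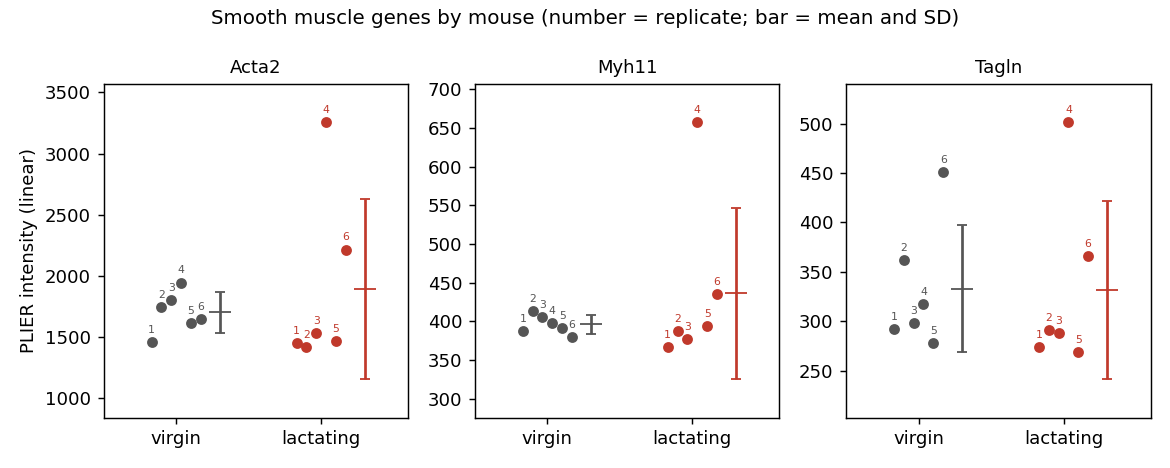
PLIER intensity (vertical axis, linear scale not starting at 0) of Acta2, Myh11 and Tagln with each of the 12 mice as a point numbered by replicate (grey: virgin, red: lactating) beside the group mean and SD. Lactating mouse 4 is highest of its group in each panel, at 3257 for Acta2, and virgin mouse 6 is highest of its group for Tagln.

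Lactating mouse 4 was high in many of these genes and not only in those of smooth muscle. Of the 6 lactating mice it had the highest value for 17 of 34 vascular genes and the lowest for 0, while over all clusters it was the highest of its group for 11.9%. It was also the highest for 8 of 10 fibroblast markers, whose sum was 7051 in this mouse, 4258 to 5021 in the other lactating mice and 4209 to 5359 in virgin mice. Of these markers Ogn, a small proteoglycan, was higher in lactating mice by limma (log2 difference 0.55, unadjusted p 0.0192), and 0 were lower. Without lactating mouse 4, at 284 for Ogn against 95.8 to 139 in the other lactating mice, its log2 difference was 0.34 (unadjusted p 0.00527). Among virgin mice, mouse 4 had the highest value for 16 of 34 vascular genes and the lowest for 0. Over all clusters it was the highest of its group for 25.5%. Of the 16 genes 13 were endothelial. Virgin mouse 4 was the highest for 1 of 10 fibroblast markers and 1 of 3 smooth muscle genes. Its fibroblast sum of 4209 was the lowest of the virgin mice. Lactating mouse 1 had the lowest value of its group for 13 of 34 genes, beside 22.0% of all clusters, and virgin mouse 5 for 12 of 34, beside 12.8%. For the 25 endothelial genes the summed intensity was 18776 to 20664 in virgin mice and 19317 to 20706 in lactating mice. For the 9 pericyte and smooth muscle genes it was 6901 to 7820 and 6296 to 9830. The part of fibroblasts or of larger vessels in these values was not tested. Without lactating mouse 4 there were 3 vascular genes higher and 1 lower, and without lactating mouse 4 and virgin mouse 6 together also 3 and 1. With both left out, Eng had a log2 difference of 0.20, Slc2a1 of 0.16, Mfsd2a of 0.24 and Slc16a1 of −0.22.

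Globin clusters had higher means in lactating mice, with 4 of the 6 above every virgin mouse. The clusters given jointly to the alpha globin genes Hba-a1 and Hba-a2 had, in the brighter of 2, a range of 4317 to 5776 in virgin mice and of 5030 to 10451 in lactating mice. The means were 4968 ± 579 and 7569 ± 2345, and the log2 difference was 0.55 at an unadjusted p of 0.0076 from limma (exact permutation test, p = 0.0173). In the clusters of the beta globin genes Hbb-b1, Hbb-b2, Hbb-bs and Hbb-bt the log2 differences were 0.59 and 0.60. Lactating mice 2, 3, 4 and 5 were above all virgin mice in both, mice 4 and 5 were the highest, and mice 1 and 6 lay within the virgin range. In lactating mice 1 to 6, in this order, Eng intensity was 687, 692, 702, 759, 756 and 715. The brighter alpha globin cluster had 5479, 6127, 8386, 10451, 9942 and 5030 in the same mice. For virgin mice 1 to 6, Eng intensity was 649, 611, 567, 681, 579 and 685. Their values in the alpha globin cluster were 4596, 4317, 5580, 5776, 4702 and 4840. Of 2 blood genes with clusters of their own, Alas2, the heme synthesis enzyme of red cells, differed by 0.31 on the log2 scale (p = 0.0433, exact permutation test) and Slc4a1 by 0.02. The adjusted p from limma was 0.619 for Alas2 and for each globin cluster. These clusters were examined after the values of the vascular genes had been seen. The part of blood left in the vessels in the values of the endothelial genes was not tested.

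**Figure D4:**
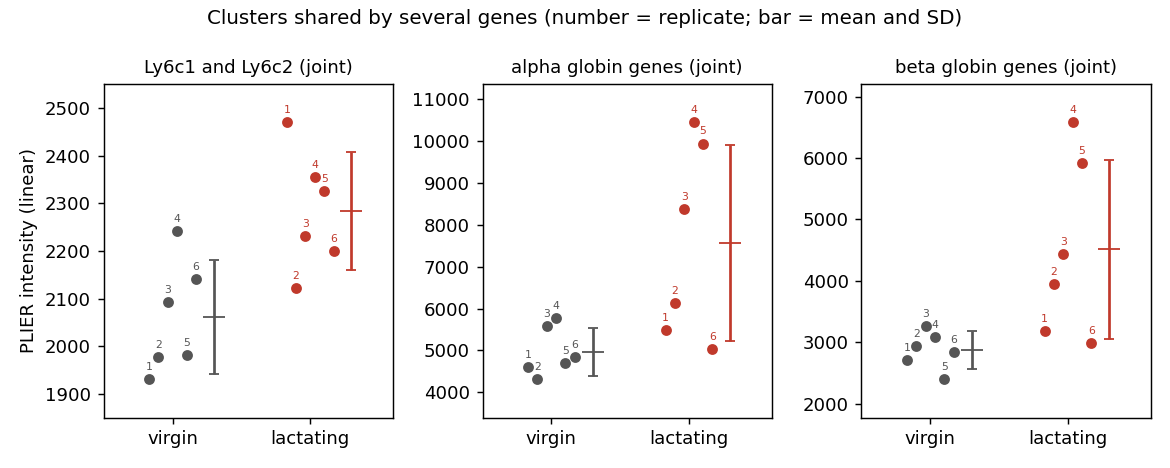
PLIER intensity (vertical axis, linear scale not starting at 0) of clusters given jointly to Ly6c1 and Ly6c2, to the alpha globin genes and to the beta globin genes with each of the 12 mice as a point numbered by replicate (grey: virgin, red: lactating) beside the group mean and SD. The alpha globin cluster spans 5030 to 10451 in lactating mice and 4317 to 5776 in virgin mice.

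Other cells of the punch were checked with the same fit, since some of them express the genes above. Among all clusters 3.26% were higher and 4.69% lower by limma (unadjusted p under 0.05). Of 10 astrocyte markers 1 was higher (Gjb6, log2 difference 0.22) and 0 lower, and their summed intensity was 36380 to 38961 in virgin mice and 37418 to 40164 in lactating mice. Of 9 oligodendrocyte markers 0 passed, with sums of 18901 to 22403 and 17497 to 25813. Of 9 microglial markers 2 were lower and 0 higher, namely P2ry12 (−0.12) and Cx3cr1 (−0.11). The study had listed P2ry12 as lower on these arrays, so its test is not independent evidence. Sums of the microglial markers were 5747 to 8406 in virgin mice and 5734 to 6068 in lactating mice, and the groups of Cx3cr1 did not overlap. Without virgin mouse 6 the log2 difference of Cx3cr1 was −0.06 (limma, unadjusted p 0.0757). None of 5 markers of vessel-associated macrophages passed, with sums of 934 to 1213 and 892 to 1145. Of 10 neuronal markers Slc17a6 was higher (0.30) and 0 lower, with sums of 57920 to 61842 and 59591 to 63567. The largest log2 difference of the neuronal list, 0.50, belonged to a marker that did not pass. Of 7 choroid plexus markers Clic6 was higher (0.16), with sums of 1967 to 2286 and 2109 to 2329, and of 8 ependymal markers Ccdc153 was lower (−0.13), with sums of 3198 to 3749 and 3046 to 3668. None of 11 septal markers passed, with sums of 27640 to 31175 and 28201 to 30853. The part of these cells in the differences of Slc2a1 and Slc16a1 was not tested.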

How the data were processed

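Per the labels and the methods of the study, the authors hybridised 1 GeneChip Mouse Gene 1.0 ST array per mouse, summarised probes into transcript clusters and normalized them using PLIER, with background taken from probes of like GC content (Affymetrix Power Tools, version 1.12.0). The deposited values are intensities on a linear scale. The genome build behind the clusters is not given in the sources used here. Gene symbols were taken from the platform annotation. Promoters came from RefSeq (GRCm38.p6), matched by symbol, for 22 of 34 genes, and Sox17 and Pltp sequences are not shown.

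The log2 of each intensity plus 16 was compared between groups with lmFit and eBayes of limma 3.58.1 in R 4.3.3, two-sided, over all 35556 clusters, with Benjamini-Hochberg adjustment. Single genes were also compared with the exact permutation test over 924 assignments, whose smallest p is 0.00216. The 12 arrays limit the precision. The test was tried on simulated data first. RNA was extracted in pairs, but the labels do not name them. The groups were treated as independent. The members and all lists were chosen with earlier results of these data known. All members are named, and of other lists the genes with the smallest unadjusted p under 0.05, at most 4 per list. Acvrl1, Vegfa, Angpt1, Pdgfb, Bsg, Slc3a2, Slc2a3, Slc2a9, Slc2a12, Slc4a1, Kcnj8 and Cspg4 were added, after their values were seen, as partners or relatives, and so were the globin clusters. Each array was left out in turn. Other scalings were quantile normalization, cyclic loess and subtracted array medians, and other scales were untransformed intensities and log2 with 1 added. The test was also run on brighter clusters or on those of 1 symbol alone, with array weights, with a trended robust prior, with a block for replicate number and on means per gene.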

Additional observations from a re-analysis of the deposited data

Results flagged for a closer look

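In 6 of the 68 groups of 6 mice (34 genes in lactating and in virgin mice), a mouse lay far from the others, with a gap to the nearest mouse above Dixon's critical share of the group's range. Chance gives this in about 5% of groups. Lactating mouse 4 was far above the others in Myh11, at 658 against a next value of 435, in Anpep, at 251 against 174, and in Tek, at 449 against 391. Virgin mouse 6 had an Anpep intensity of 422 where the next was 162, a gap of 0.942 of the range. Lactating mouse 5 had an Emcn intensity of 796 against 641, and lactating mouse 6 a Pltp intensity of 2254 against 1936.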

How the results depend on the processing

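The alternatives gave 808 values for single genes. Of these 784 kept their side of the threshold, 16 lost the call (Sox17 and Pltp) and 8 gained one (Flt1, Kdr, Pecam1 and Esam), and no gene that was called changed its direction. Eng, Slc2a1, Mfsd2a and Slc16a1 had an unadjusted p under 0.05 from limma in all 24 alternatives, with p up to 0.0097, 0.0201, 0.0205 and 0.038. Leaving out 1 mouse at a time gave 3 to 7 genes higher (7 without virgin mouse 4) and 1 to 2 lower, 1 to 3 genes whose groups do not overlap, 4 to 7 with an exact permutation p under 0.05 and 10 to 17 genes of the other lists at an unadjusted p under 0.05, where all mice gave 4, 2, 1, 6 and 15. In the other lists the calls of Apcdd1, Ccdc153, Clic6, Cx3cr1, Ddit4, Foxq1, Tfrc and Tgfb1 were each lost when 1 of 3 or more single mice was left out. The number of genes whose groups do not overlap fell to 0 after quantile normalization and to 0 after cyclic loess. Subtracted array medians left 1 gene lower. Without lactating mouse 4 and virgin mouse 6 together, chosen after seeing the data, 1 gene was lower, 3 passed the exact permutation test and 7 of the other lists passed. The fit has fewer mice there, and the cause of the other changes was not tested. With replicate number as a block, 5 genes were higher and 2 lower, and 16 of the other lists passed. Flt1 was the added gene (limma, unadjusted p 0.043). The same-numbered mice are not known to be pairs, and for 2 of 6 replicate numbers the mice bearing it had residuals correlated above 0.1. Intensities have no detection call here, so a low level is not a statement of absence.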
